A study of Mus musculus with 8 samples.

Results

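*Slc1a2* and 9 further genes of pericentral hepatocytes and of Wnt signalling (*Glul*, *Oat*, *Rhbg*, *Lgr5*, *Axin2*, *Tbx3*, *Rnf43*, *Znrf3* and *Lect2*) were followed liver by liver in mice with and without hepatocyte *Rbfox2*. These 10 genes are 10 of the 46078 gene identifiers counted, and all 10 were among the 13856 genes with enough reads to be tested. *Slc1a2* was chosen by its measured difference between these livers, since the DESeq2 test called it lower on the same counts, and the other 9 were picked as known pericentral or Wnt genes with results of these data known. The differences between genotypes are therefore given for the 10 genes as a description, without a test.

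In the liver lobule, hepatocytes next to the central vein receive Wnt ligands and R-spondins from the vein's endothelium, and β-catenin signalling in these cells maintains the pericentral programme. That programme includes the capture of ammonia that escapes the urea cycle upstream: glutamate is taken up and joined to ammonia to form glutamine. R-spondins act through LGR receptors, which restrain the ubiquitin ligases RNF43 and ZNRF3 and so keep Frizzled receptors on the cell surface, and AXIN2 closes a negative feedback loop on β-catenin.

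Livers labelled wild-type (LWT, n = 4) and Rbfox2 knockout (LΔRbfox2, n = 4) were compared, with 1 library per liver. By the study's methods all mice of this cross carry loxP-flanked *Rbfox2* alleles, and the knockout mice also carry Cre recombinase under the Albumin promoter, which is active in hepatocytes, so other liver cells keep *Rbfox2*. All mice were on the control (chow) diet for 12 weeks according to the labels, whereas the study's methods give a longer time, and were fasted for 16 h, and males were used unless the methods state otherwise. The labels give no age. They number the livers but do not say outright that each is from a separate animal, and the spread between livers is the error used throughout.

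Total counts ranged from 37482458 to 56177588 per liver. Levels are given as CPM, which are counts scaled to the library size after correction by the trimmed mean of M values (TMM), and a count of 3 corresponds to between 0.0468 and 0.0929 CPM for counting error only. Between 31.2% and 49.6% of each library came from its 20 most abundant genes, and the scaling factors of LΔRbfox2 livers 3 and 4 (0.724 and 0.776) lay below those of the other livers (1.02 to 1.14). *Rbfox2*, the deleted gene, was at 14.3 ± 3.96 CPM in LWT livers and at 4.03 ± 1.68 CPM in LΔRbfox2 livers (SD, n = 4), or 28.2% of LWT, with no overlap. Hepatocyte markers (*Alb*, *Ttr*, *Apoa1*, *Hnf4a* and *Serpina1c*) summed to between 44145 and 66496 CPM in LWT and between 48683 and 71246 CPM in LΔRbfox2 livers.

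*Slc1a2* (ENSMUSG00000005089) encodes the glutamate transporter GLT-1 (EAAT2), best known from astrocytes and in liver found on pericentral hepatocytes. It lies on the plus strand of GRCm38 at chr2:102658659-102790784 and has 13133 exon bases, more than any other of the 10 genes. The RefSeq promoter window, from 250 bases before to 50 after the annotated start (GRCm38.p6, chr2:102706188-102706487, plus strand), is shown because β-catenin acts on DNA through TCF/LEF factors, and the capitals mark a TCF/LEF core. The start of this window lies inside the GENCODE gene, which begins further upstream, and which start the livers used was not analysed here. The *Lect2* window (GRCm38.p6, chr13:56548489-56548788, minus strand) is shown beside it because it was the only other one with a match among the 7 windows found for 6 of the 10 genes (*Axin2*, *Glul*, *Lect2*, *Oat*, *Rnf43* and *Slc1a2*).
Slc1a2 promoter: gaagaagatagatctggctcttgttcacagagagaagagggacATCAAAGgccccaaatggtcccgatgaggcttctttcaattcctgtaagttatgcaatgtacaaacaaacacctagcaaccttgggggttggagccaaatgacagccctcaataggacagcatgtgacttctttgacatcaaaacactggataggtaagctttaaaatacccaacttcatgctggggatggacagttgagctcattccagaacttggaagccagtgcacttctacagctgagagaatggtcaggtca
Lect2 promoter: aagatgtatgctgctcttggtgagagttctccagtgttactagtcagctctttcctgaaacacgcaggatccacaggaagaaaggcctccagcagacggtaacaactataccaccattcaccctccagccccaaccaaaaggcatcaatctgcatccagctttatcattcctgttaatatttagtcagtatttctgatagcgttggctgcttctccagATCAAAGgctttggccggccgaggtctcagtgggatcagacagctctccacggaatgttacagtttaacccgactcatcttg
The core searched was CTTTGAA, and further allowed forms were CTTTGAT and, in addition, CTTTGTA and likewise the form CTTTGTT, each on both strands. In both genes the match was CTTTGAT on the strand opposite to the gene, beginning 207 bases before the start in *Slc1a2* and 32 bases before it in *Lect2*. Of 32851 promoter windows of the same length, 16.9% held at least 1 such core, and so did 12.2% of the 12812 windows of genes tested here. A match is a description of these letters and no evidence of binding.

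*Slc1a2* mRNA was at 92.4, 68.6, 93.3 and 114.6 CPM in LWT livers 1 to 4. In LΔRbfox2 livers 1 to 4 it was at 38.3, 46.5, 45.3 and 34.7 CPM. Every LΔRbfox2 liver was below every LWT liver, and the lowest LWT liver (number 2) stood well above the highest LΔRbfox2 liver (also number 2). The mean was 92.2 ± 18.8 CPM in LWT and 41.2 ± 5.63 CPM in LΔRbfox2 livers (SD, n = 4), so that the LΔRbfox2 mean was 44.7% of the LWT mean. On the log2 scale the fold change was −1.16 (standard error 0.19). These values, and the call behind the choice of the gene, come from the same contrast and are a description.

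The other 9 genes overlapped between genotypes. Of the 10 genes, 1 (*Slc1a2*) had no overlap and a lower level in LΔRbfox2 livers, beside 1.23% of all genes tested that did so and 1.05% that did so in the higher direction. With the quasi-likelihood test of edgeR and Benjamini-Hochberg adjusted p-values, 0 of the 10 genes passed an adjusted p of 0.05, and 0% of all genes did, with 1102 genes higher (7.95%) and 254 lower (1.83%) at an unadjusted p under 0.05, of which 1 lower gene was among the 10. limma-voom also called 0 genes, with 979 at an unadjusted p under 0.05. DESeq2 called 9 of the 23751 genes it adjusted (0.0379%), 4 higher and 5 lower, and 1 of the 10 genes (*Slc1a2*) was among them. Nothing is read from these counts, since *Slc1a2* was chosen by one of them.

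**Figure D1:**
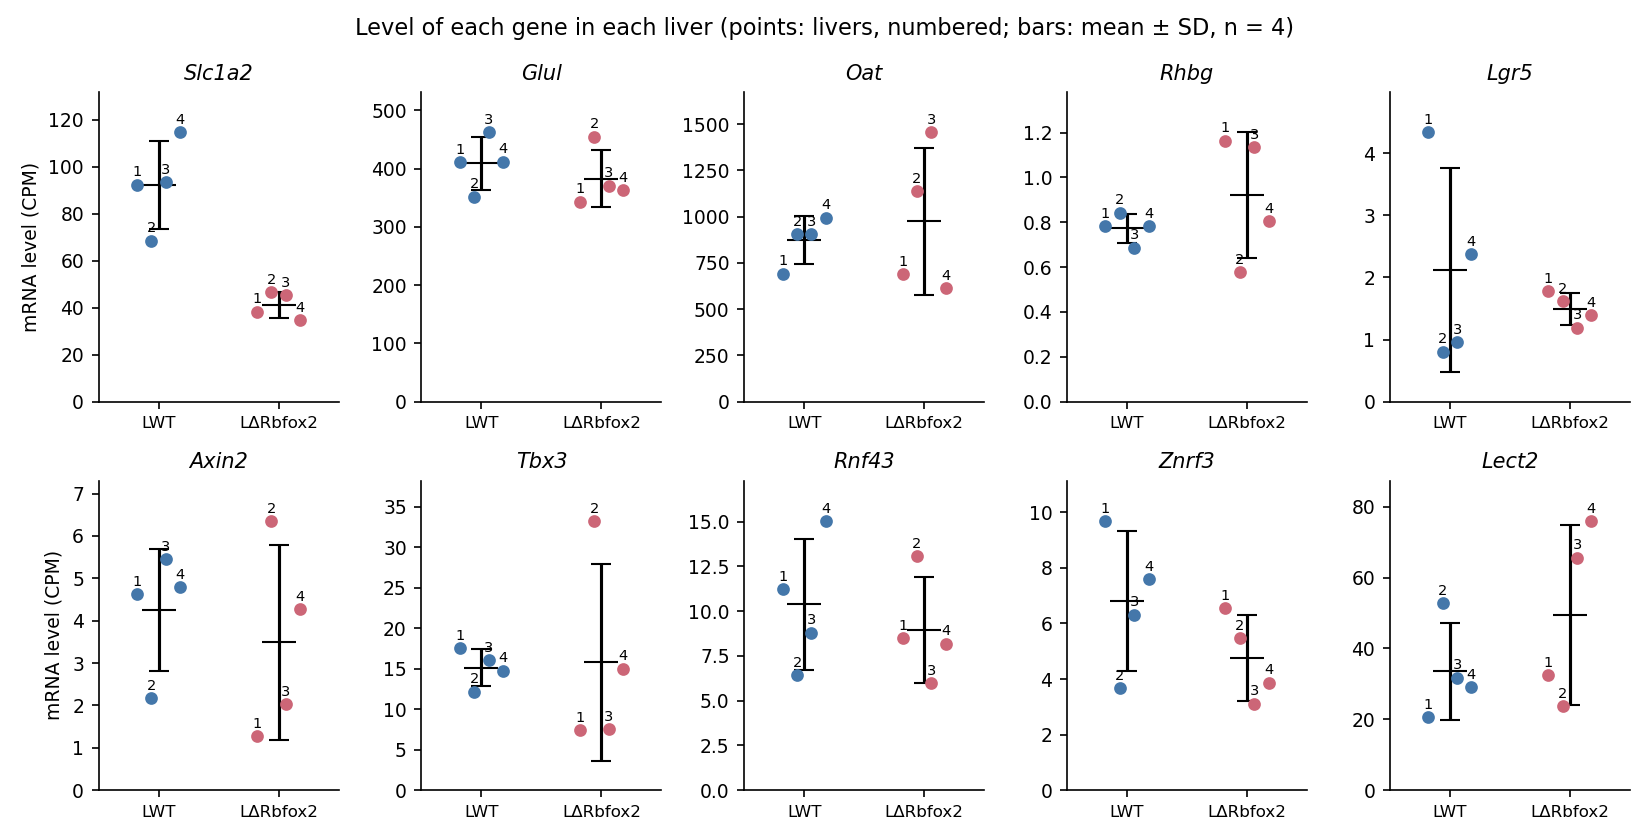
Levels of the 10 genes in CPM (vertical axes, each from 0) in LWT and LΔRbfox2 livers, with numbered points for livers and bars for mean ± SD (n = 4). *Slc1a2* is the panel in which the genotypes do not overlap, with LWT livers from 68.6 to 114.6 CPM and LΔRbfox2 livers from 34.7 to 46.5 CPM.

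By log2 fold change, 6 of the 10 genes were below 0 and 4 above, where 51.6% of all genes tested were below 0. The median over the 10 genes was −0.15, and −0.10 without *Slc1a2*, beside −0.02 for all genes tested. Between genes, levels can be compared only per kilobase of exon. On that scale the order of LWT means was *Oat* (370 CPM per kb), *Glul* (123), *Lect2* (36.5), *Slc1a2* (7.02), *Tbx3* (2.29), *Rnf43* (1.58), *Znrf3* (0.864), *Axin2* (0.773), *Rhbg* (0.400) and *Lgr5* (0.206). The LWT livers of neighbouring genes did not overlap from *Oat* down to *Tbx3*, and each pair of neighbours from *Tbx3* down to *Lgr5* overlapped. The place of *Rhbg* is uncertain, since 61.4% of its exon bases are shared with another gene on the same strand. The scale divides by all annotated exon bases of a gene. For *Lgr5* these are 10264, against 4714 in its transcript with the longest coding sequence, so its place is uncertain too. In LΔRbfox2 livers *Slc1a2* was at 3.14 CPM per kb, and *Tbx3* at 2.39 ± 1.84 CPM per kb, and the livers of these genes overlapped there.

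Transporters and enzymes of glutamate and ammonia handling formed the first group. *Glul* (ENSMUSG00000026473, chr1:153899944-153909723, plus strand) encodes glutamine synthetase, which in liver is confined to the hepatocytes around the central vein and uses the glutamate that GLT-1 can bring in. Its level was 411, 352, 462 and 412 CPM in LWT livers 1 to 4. It was 343, 455, 371 and 363 CPM in LΔRbfox2 livers 1 to 4. The ranges overlapped over most of their length, and only LΔRbfox2 liver 1 fell below the lowest LWT liver. Means were 409 ± 45.0 and 383 ± 49.2 CPM (SD, n = 4), with a log2 fold change of −0.10 (standard error 0.17).

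*Oat* (ENSMUSG00000030934, chr7:132557478-132576398, minus strand) encodes ornithine aminotransferase, which passes the amino group of ornithine on to form glutamate. LWT livers 1 to 4 were at 692, 905, 904 and 994 CPM and LΔRbfox2 livers 1 to 4 at 688, 1137, 1455 and 615 CPM. The LΔRbfox2 livers fell on both sides of the LWT range, livers 2 and 3 above it and livers 1 and 4 below it. Means were 874 ± 128 and 974 ± 395 CPM (SD, n = 4), with a log2 fold change of 0.16 (standard error 0.28), which was −0.13 without LΔRbfox2 liver 3. *Rhbg* (ENSMUSG00000104445, chr3:88242874-88254709, minus strand), an ammonium transporter of pericentral hepatocytes, was at 0.774 ± 0.065 CPM in LWT and 0.920 ± 0.281 CPM in LΔRbfox2 livers (SD, n = 4). Its values rest on 26 to 51 counts per liver, and 61.4% of its exon bases are shared with another annotated gene on the same strand (*Gm38392*), so its level is uncertain. Its log2 fold change was 0.24 (standard error 0.29).

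The receptor and feedback genes of the pathway formed the next group. *Lgr5* (ENSMUSG00000020140, chr10:115450311-115587780, minus strand), an R-spondin receptor and Wnt target, was at 4.34, 0.804, 0.957 and 2.37 CPM in LWT livers 1 to 4. It was at 1.78, 1.62, 1.19 and 1.39 CPM in LΔRbfox2 livers 1 to 4. All LΔRbfox2 livers lay inside the LWT range, which spanned 5.40-fold. Means were 2.12 ± 1.64 and 1.498 ± 0.259 CPM (SD, n = 4), with a log2 fold change of −0.49 (standard error 0.49). Without LWT liver 1 it was 0.11, and with limma-voom, the source of the standard error, it was −0.13.

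*Rnf43* (ENSMUSG00000034177, chr11:87662722-87735539, plus strand) and *Znrf3* (ENSMUSG00000041961, chr11:5276324-5444847, minus strand) encode the ligases that remove Frizzled receptors and are themselves Wnt targets. *Rnf43* was at 11.2, 6.41, 8.80 and 15.04 CPM in LWT and at 8.50, 13.1, 5.99 and 8.17 CPM in LΔRbfox2 livers 1 to 4. *Znrf3* was at 9.69, 3.68, 6.32 and 7.60 CPM in LWT and at 6.56, 5.46, 3.11 and 3.87 CPM in LΔRbfox2 livers 1 to 4. For both ligases LWT liver 2 was the lowest LWT liver, and LΔRbfox2 liver 3 the lowest of all. Log2 fold changes were −0.21 (standard error 0.31) for *Rnf43* and −0.52 (standard error 0.34) for *Znrf3*, and that of *Rnf43* was 0.02 without LWT liver 4.

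*Axin2* (ENSMUSG00000000142, chr11:108920349-108950783, plus strand), the scaffold of the β-catenin destruction complex that serves as the common readout of the pathway, was at 4.62, 2.17, 5.45 and 4.79 CPM in LWT livers 1 to 4. It was at 1.28, 6.35, 2.04 and 4.27 CPM in LΔRbfox2 livers 1 to 4. LΔRbfox2 liver 2 was the highest of all livers and LΔRbfox2 liver 1 the lowest, a span of 4.97-fold within 1 genotype. Means were 4.26 ± 1.44 and 3.49 ± 2.30 CPM (SD, n = 4), with a log2 fold change of −0.28 (standard error 0.50). The value rests on single livers, since it was −0.76 without LΔRbfox2 liver 2 and −0.00082 without LΔRbfox2 liver 1.

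*Tbx3* (ENSMUSG00000018604, chr5:119670669-119684724, plus strand), a T-box transcription factor and Wnt target in liver, was at 17.6, 12.2, 16.1 and 14.8 CPM in LWT livers 1 to 4 and at 7.45, 33.3, 7.53 and 15.02 CPM in LΔRbfox2 livers 1 to 4. The LWT livers lay close together, while LΔRbfox2 liver 2 was far above them and livers 1 and 3 far below. Its log2 fold change was 0.07 (standard error 0.43). It was −0.60 without LΔRbfox2 liver 2 and −0.18 with limma-voom, so the direction rests on that liver and on the method. *Lect2* (ENSMUSG00000021539, chr13:56542464-56548502, minus strand), a protein that hepatocytes secrete and a known β-catenin target, was at 20.6, 52.8, 31.8 and 29.0 CPM in LWT and at 32.6, 23.6, 65.6 and 76.0 CPM in LΔRbfox2 livers 1 to 4. LΔRbfox2 livers 3 and 4 were above all LWT livers and livers 1 and 2 were not. Its log2 fold change was 0.56 (standard error 0.40).

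LΔRbfox2 livers 3 and 4 are the pair with low scaling factors, and without them the log2 fold change of *Lect2* was −0.29 while that of *Slc1a2* was −1.14. Fold changes also moved with gene length. The 796 other genes with 80% to 125% of the exon length of *Slc1a2* had a median log2 fold change of −0.22, and 1 of them was more negative than *Slc1a2*. Since *Slc1a2* was chosen by this same difference, its place among them is a description and nothing is read from it. For the 623 genes of about the length of *Lect2*, which with 919 exon bases is the shortest of the 10 genes, the median was 0.37. After each library was corrected for gene length, the log2 fold change was −0.93 for *Slc1a2* and 0.11 for *Lect2*. The part that gene length or its companions in the libraries had in the difference of each gene was not tested further.

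**Figure D2:**
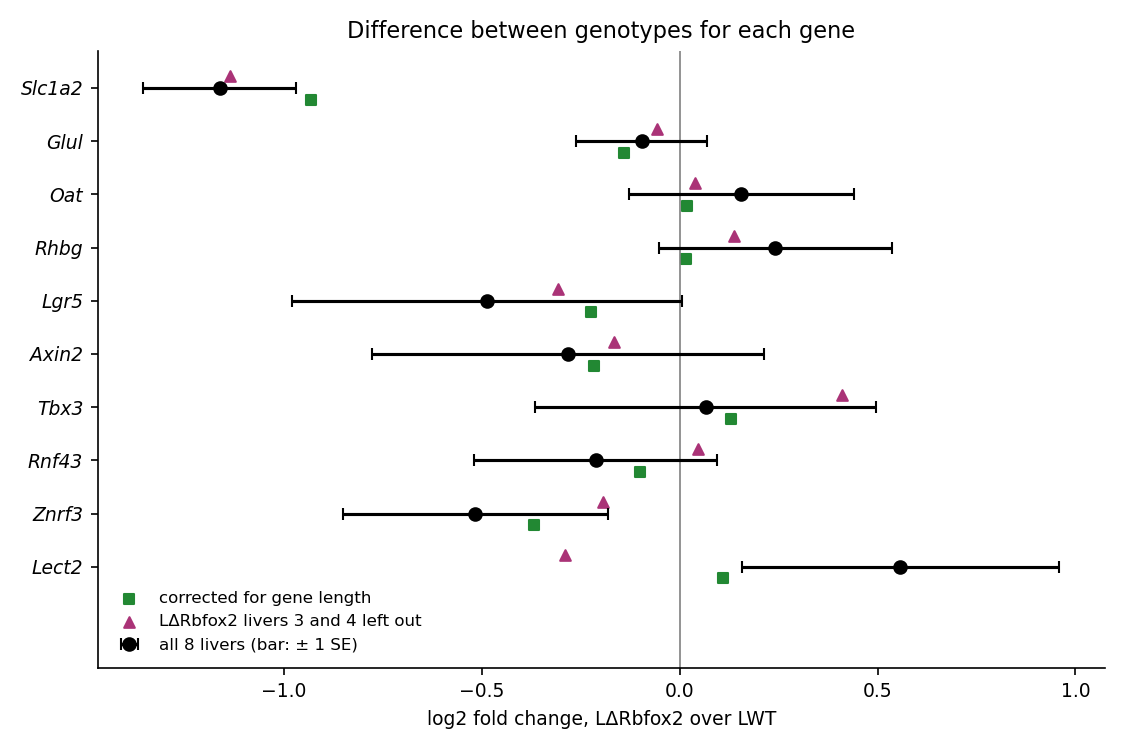
Log2 fold changes (horizontal axis, LΔRbfox2 over LWT) of the 10 genes with all 8 livers (circles, bars ± 1 standard error), after correction for gene length (squares) and without LΔRbfox2 livers 3 and 4 (triangles). *Slc1a2* stays between −1.16 and −0.93, whereas *Lect2* goes from 0.56 to 0.11 and −0.29.

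Whether the other genes followed *Slc1a2* from liver to liver was examined after the mean of each genotype was removed, so that the difference between genotypes did not enter. Over the 8 livers, *Glul* had an r of 0.65 with *Slc1a2* (exact permutation p = 0.0972, two-sided, livers permuted within genotypes) and a Spearman rho of 0.81 (exact permutation p = 0.0312). The r was 0.64 without the 2 livers farthest from the median of *Slc1a2*. *Rnf43* had an r of 0.67 (exact permutation p = 0.106) and a rho of 0.62 (exact permutation p = 0.163), which rests on those 2 livers, since r was 0.18 without them. *Oat* had an r of 0.53 (exact permutation p = 0.123) and a rho of 0.67 (exact permutation p = 0.125), and an r of 0.88 without the 2 livers. *Lect2* ran opposite to *Slc1a2* with an r of −0.54 (exact permutation p = 0.165), a rho of −0.52 (exact permutation p = 0.205) and an r of −0.45 without the 2 livers. For *Lgr5*, *Znrf3*, *Axin2*, *Tbx3* and *Rhbg* r lay between −0.21 and 0.47, with exact permutation p-values from 0.234 to 0.550. An r with *Slc1a2* at least as high as that of *Glul* was held by 10.8% of all genes tested. The share was 9.38% for *Rnf43* and 21.4% for *Oat*. These are 9 relations whose p-values were not adjusted for their number, and 8 livers are few for any of them.

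In an edgeR fit of each gene on *Slc1a2* with genotype as a second term, 0 of 13855 genes (0%) passed an adjusted p of 0.05, and 994 genes had a positive slope (7.17%) and 1578 a negative slope (11.4%) at an unadjusted p under 0.05. Of the 9 genes, *Rnf43* had a slope of 1.36 (adjusted p = 0.240, edgeR with Benjamini-Hochberg). It was the 1 positive slope with an unadjusted p under 0.05 among them. The genes most like *Slc1a2* within genotypes, ranked over all genes tested, were *Serpina3n* (r = 0.97), *Aldh1l1* (r = 0.97), *Eri3* (r = 0.96), *Susd4* (r = 0.96) and *Trim30a* (r = 0.95). Without removal of the genotype means they were *Wdfy4* (r = 0.96), *Apobr* (r = 0.96), *Lmbrd2* (r = 0.95), *Nr1i2* (r = 0.94) and *Carns1* (r = 0.94). That second ranking holds the genotype difference by which *Slc1a2* was chosen, so genes lower in LΔRbfox2 livers rank high in it. Within genotypes the r of *Apobr*, for example, was 0.73. Nothing is read from the second ranking. None of the other 9 genes was on either list. All of these correlations run over the same 8 livers, which share depth and composition from gene to gene.

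The first principal component of all genes held 54.07% of the variance, did not separate the genotypes and had an r of −0.69 with *Slc1a2* within genotypes. The spread of the 10 genes followed several patterns. LWT liver 2 was the lowest LWT liver for *Slc1a2*, *Glul*, *Lgr5*, *Axin2*, *Tbx3*, *Rnf43* and *Znrf3* and the highest for *Rhbg* and *Lect2*. LΔRbfox2 liver 2 was the highest of its genotype for *Slc1a2*, *Glul*, *Axin2*, *Tbx3* and *Rnf43* and the lowest for *Rhbg* and *Lect2*. Among the 45 pairs of the 10 genes the median r within genotypes was 0.20, and it was 0.89 for *Axin2* with *Tbx3*, 0.84 for *Glul* with *Axin2*, 0.81 for *Lgr5* with *Znrf3*, −0.87 for *Znrf3* with *Lect2*, −0.90 for *Rhbg* with *Axin2* and −0.98 for *Rhbg* with *Tbx3*. These pairs were picked as extremes after their values were seen and have no test.

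**Figure D3:**
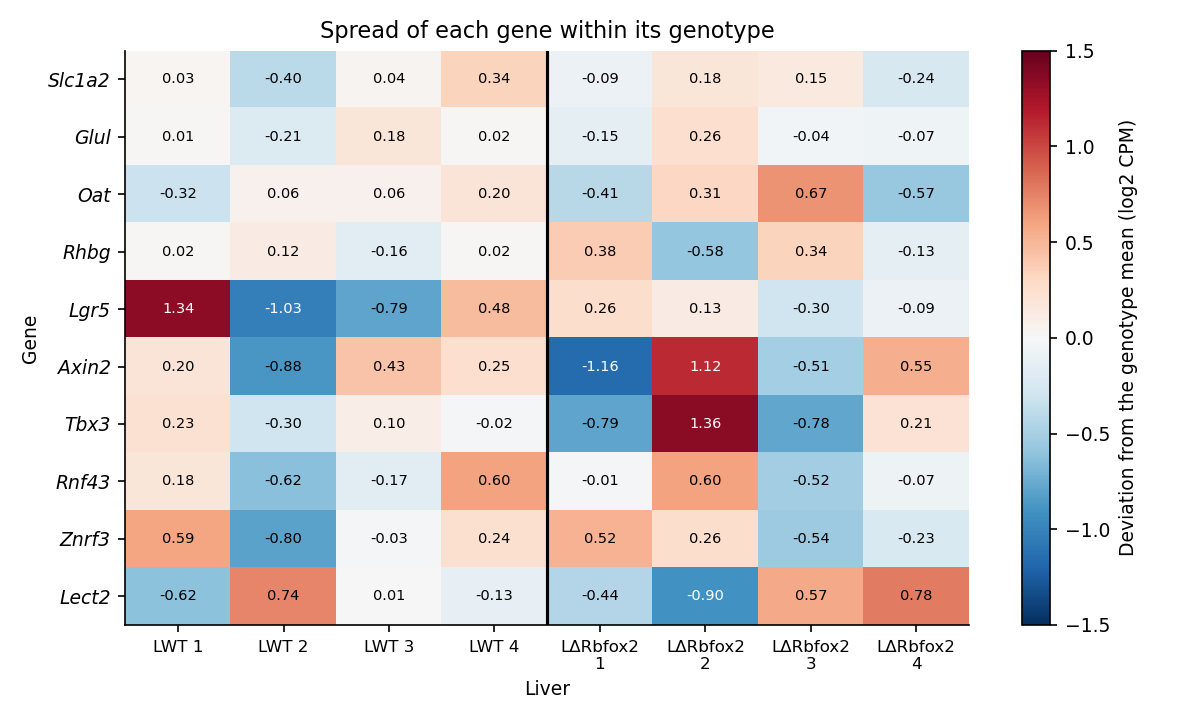
Deviation of each liver (columns) from the mean of its genotype in log2 CPM (colour and printed value) for the 10 genes (rows). LWT liver 2 is low for *Slc1a2* (−0.40), *Axin2* (−0.88) and *Znrf3* (−0.80) and high for *Lect2* (0.74), and LΔRbfox2 liver 2 is high for *Axin2* (1.12) and *Tbx3* (1.36).

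RBFOX2 binds RNA at the motif TGCATG, with U for T in RNA, and these letters were searched on the sense strand of the protein-coding transcript with the longest coding sequence of each gene (GENCODE M21). The motif occurred in 7 of the 10 genes and in 53.4% of 12143 genes with such a transcript. Introns, where RBFOX2 also binds, were not searched. The first match of 5 genes is shown with 12 bases on either side, because these are the letters that the factor deleted in LΔRbfox2 hepatocytes is known to read, and the capitals mark the motif.
Slc1a2, coding, chr2:102735967-102735996 plus strand: tagaagtgcgcaTGCATGacagccacctca
Glul, 3′ UTR, chr1:153908420-153908449 plus strand: tctcatcgggtaTGCATGtccggtaggcat
Oat, coding, chr7:132566828-132566857 minus strand: ggctggagagacTGCATGtaagctcgctcg
Axin2, 3′ UTR, chr11:108949936-108949965 plus strand: aggaatctgctcTGCATGgcatttctccaa
Tbx3, 3′ UTR, chr5:119683724-119683753 plus strand: tggcttctttttTGCATGttacagttttct
The *Slc1a2* transcript, 11595 bases long with 9253 of them in its 3′ UTR, held 1 match and none in the 3′ UTR. Of 270 genes with transcripts of 80% to 125% of that length, 92.6% held at least 1 match and the median was 3. *Rnf43* held 2 matches and *Lect2* 1. The letters TGCATG were not in the transcripts searched for *Rhbg*, *Lgr5* and *Znrf3*.

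The wider programme was described with lists of other genes, beside the 51.6% of all genes tested that had log2 fold changes below 0. Of 16 further pericentral genes, all tested, 7 had log2 fold changes below 0 and 9 above, with a median of 0.04. *Cyp2e1*, the alcohol-oxidizing cytochrome P450 of pericentral cells, was at 6439 CPM in LWT and 6569 CPM in LΔRbfox2 livers. In edgeR's test, 1 of the 16 genes was lower at an unadjusted p under 0.05 (1.83% of all genes were) and none passed after adjustment. It was *Prodh*, which encodes the proline dehydrogenase that begins the conversion of proline to glutamate, at 92.9, 62.7, 81.7 and 100.4 CPM in LWT and 42.4, 68.7, 60.6 and 43.3 CPM in LΔRbfox2 livers 1 to 4 (log2 fold change −0.65, standard error 0.22, adjusted p = 0.504). Its genotypes overlapped through livers 2, and its r with *Slc1a2* within genotypes was 0.91. *Cyp7a1*, the rate-limiting enzyme of bile acid synthesis, had a log2 fold change of 1.16 with a standard error of 0.59 (adjusted p = 0.525), and *Gulo* one of −0.30 with a standard error of 0.16 (adjusted p = 0.531). Among 16 periportal genes, the opposite zone, 7 were below 0 and 9 above, with a median of 0.07, and 0 reached an unadjusted p under 0.05. The 3 with the smallest p were *Hsd17b13* (log2 fold change 0.38), *Ctsc* (0.47) and *Uroc1* (−0.30).

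Other genes of glutamate and ammonia handling were tested for 14 of 20, with 10 below 0, 4 above and a median of −0.10. None reached an unadjusted p under 0.05 in edgeR's test. Among those with the smallest p were *Slc38a2*, an amino acid transporter (84.7 ± 18.4 against 64.3 ± 21.7 CPM; SD, n = 4), and *Got2*, a mitochondrial aspartate aminotransferase (309 ± 44.3 against 260 ± 45.9 CPM; SD, n = 4). Among relatives of *Slc1a2* in its own transporter family, *Slc1a1* had at most 1 count and *Slc1a3* at most 6 counts in any liver, while *Slc1a4* and *Slc1a5*, which carry neutral amino acids, were at 1.252 and 0.937 CPM in LWT livers. The ammonium transporter genes *Rhag* and *Rhcg* had 0 counts in all livers.

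The Wnt pathway was examined from ligand to nucleus. The share below 0 was 51.6% over all genes tested and 75.9% over the 796 other genes of about the exon length of *Slc1a2*. That gene has 13133 exon bases, more than the median of each Wnt list. Ligands, other secreted factors and the ligand-processing genes *Wls* and *Porcn* were tested for 8 of 11 genes, with 6 below 0 and a median of −0.16. *Rspo3*, the R-spondin of the central vein, was at 2.11 ± 0.709 and 2.73 ± 0.719 CPM (SD, n = 4). *Dkk3* had a log2 fold change of −0.28 and *Wnt9b*, a ligand of the central vein, one of −0.45 with a standard error of 0.41. Of 11 receptor genes 8 were below 0, with a median of −0.13, and the coreceptor genes *Lrp6* (−0.48, standard error 0.29) and *Lrp5* (−0.40, standard error 0.29) and the Frizzled receptor gene *Fzd4* (−0.35, standard error 0.27) had the smallest p.

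Of 13 intracellular components 12 were below 0, with a median of −0.20. *Dvl3* and *Dvl1*, which encode Dishevelled proteins, had log2 fold changes of −0.50 and −0.24, and *Csnk1a1*, which encodes a kinase of the destruction complex, one of 0.18. Of 12 nuclear components 10 were tested and 8 were below 0, with a median of −0.30, led by *Bcl9* (−0.91, standard error 0.57), *Pygo2* (−0.39, standard error 0.25) and *Bcl9l* (−0.68, standard error 0.46). Further feedback and target genes were tested for 7 of 10, with 5 below 0 and a median of −0.26. *Myc* had a log2 fold change of −0.77 (standard error 0.41), *Kremen1* one of −0.35 and *Tnfrsf19* one of 0.44. In these 5 Wnt lists 0 genes passed an adjusted or an unadjusted p of 0.05 in edgeR's test, and 0 passed an adjusted p of 0.05 in limma-voom or DESeq2.

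The median exon length of the Wnt lists ran from 3776 bases (ligand list) to 8496 bases (intracellular list), and fold changes moved with length. All genes of about the median exon length of the intracellular list (2129 genes) had a median log2 fold change of −0.17, and those of about the median length of the nuclear list (2237 genes) one of −0.16. For the receptor list the corresponding median was −0.11 and for the feedback list −0.08. For the ligand list it was −0.03, beside −0.16 for the list itself. The part of gene length in the lists' medians and in their counts below 0 was not tested. *Nkd1*, a Wnt feedback inhibitor, was the 1 gene of these lists without overlap, at 1.280 to 1.52 CPM in LWT and 0.743 to 1.279 CPM in LΔRbfox2 livers, and it is named because of that value. Of all genes tested 1.23% were lower without overlap, so nothing is read from this count.

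**Figure D4:**
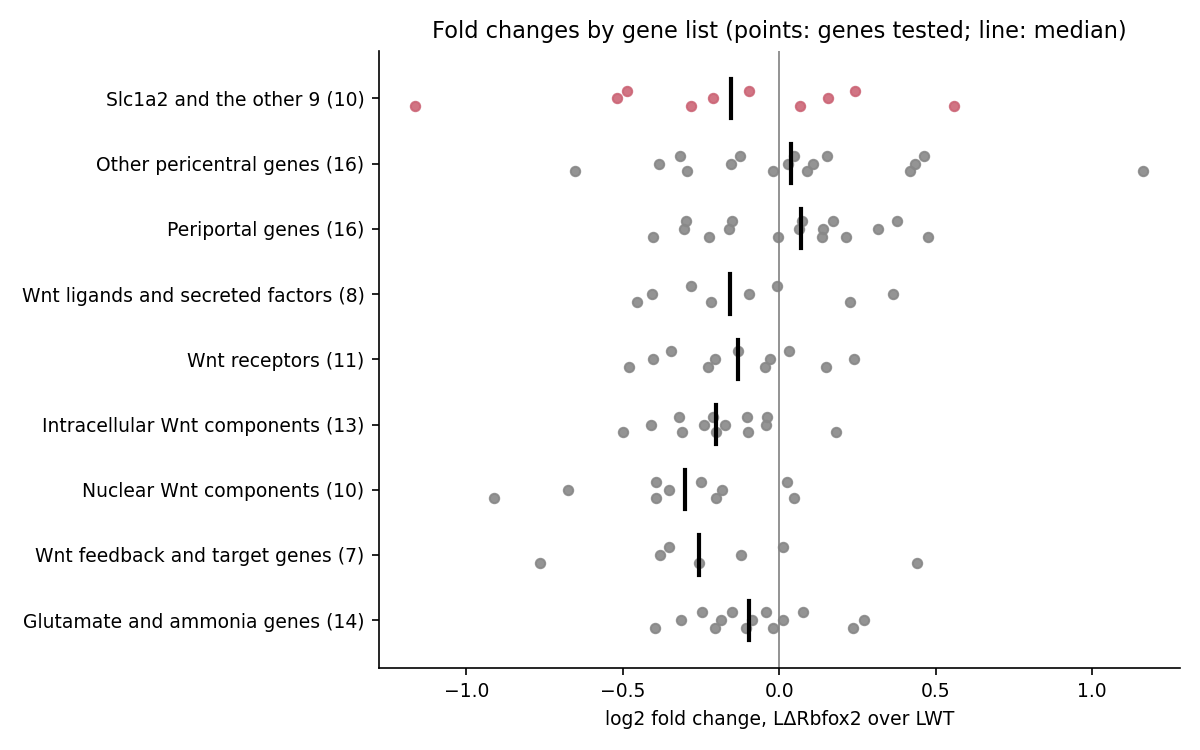
Log2 fold changes (horizontal axis, LΔRbfox2 over LWT) of every gene tested in each list, with the number tested in brackets and the median as a black line. The medians run from −0.30 in the nuclear Wnt list to 0.07 in the periportal list, and *Slc1a2* is the leftmost point of all, at −1.16.

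In bulk liver, fewer cells of a type and less RNA per cell cannot be told apart. Markers of other cells were therefore set beside the values of *Slc1a2*. Neural tissue, where *Slc1a2* is abundant, gave little signal: its 5 markers summed to 2.64 to 6.22 CPM in LWT and 2.20 to 5.03 CPM in LΔRbfox2 livers, with at most 1 count for *Snap25* and 12 for *Gfap* in any liver. Markers of central vein endothelium (*Wnt2*, *Wnt9b*, *Rspo3*, *Thbd* and *Kit*) summed to 5.13 to 10.4 CPM and 5.39 to 9.78 CPM, and those of liver endothelium to 56.6 to 72.8 CPM and 47.3 to 63.1 CPM, in LWT and LΔRbfox2 livers.

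Markers of Kupffer cells, the resident macrophages, summed to 52.6 to 91.7 CPM in LWT and 29.9 to 61.8 CPM in LΔRbfox2 livers, and 1 of the 5, *Clec4f*, had no overlap (27.7 ± 6.33 against 16.7 ± 5.79 CPM; SD, n = 4), where 1.23% of all genes tested were lower without overlap. Cholangiocyte markers summed to 14.6 to 25.8 CPM and 16.4 to 60.9 CPM. *Spp1* made up most of that sum in every liver, and the top value was LΔRbfox2 liver 3, with 55.3 CPM of *Spp1*. That liver had a low scaling factor, and *Spp1* was at 11.8 to 26.5 CPM in the other LΔRbfox2 livers. Stellate cell markers (*Lrat*, *Dcn*, *Reln*, *Hgf* and *Colec11*) summed to 63.2 to 134 CPM in LWT and 82.9 to 128 CPM in LΔRbfox2 livers. Within genotypes their sum had an r of −0.92 with *Slc1a2* (exact permutation p = 0.00347, Benjamini-Hochberg adjusted over the 7 marker lists p = 0.0243) and a rho of −0.88 (exact permutation p = 0.0174, adjusted p = 0.122), and an r of −0.77 without the 2 livers farthest from the median of *Slc1a2*. *Dcn* made up most of that sum in every liver (39.5 to 102 CPM), so these values mainly describe *Dcn*. It was highest in LWT liver 2 and LΔRbfox2 liver 4, which also had the highest scores of their genotypes on the first principal component of all genes. That component itself had an r of −0.69 with *Slc1a2* within genotypes, and its part in the relation to stellate cell markers was not tested. In the edgeR fit on *Slc1a2*, 3 of the 5 stellate cell markers had a negative slope at an unadjusted p under 0.05, beside 11.4% of all genes. For the other 6 marker lists r lay between −0.62 and 0.61, with exact permutation p-values from 0.142 to 0.849. None of the markers was at 0 in all livers. The part of these cells in the level of *Slc1a2* was not tested.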

How the data were processed

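Poly(A)-enriched RNA from 8 livers was sequenced by the authors as 100 bp paired-end reads, aligned to GRCm38 with TopHat2 2.0.11 (library type first-strand) and counted per gene with featureCounts. Its version, strand and multi-mapping settings are not given in the sources used here, so reads shared by overlapping or antisense genes are uncertain. The deposited values are raw counts for 46078 identifiers. Of these, 45229 matched GENCODE M21, which gave symbols, positions and exon lengths.

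The genotypes were compared with edgeR 4.0.16 in R 4.3.3, using filterByExpr (minimum count 10, minimum total 15), TMM factors, glmQLFit and glmQLFTest on genotype alone, with p-values adjusted by Benjamini-Hochberg over all genes tested and a threshold of 0.05. Standard errors are those of limma-voom (limma 3.58.1), and log2 CPM used a prior count of 2. A second edgeR fit had genotype and the log2 CPM of *Slc1a2*. Correlations within genotypes used log2 CPM minus the genotype mean, with exact two-sided permutation over 576 arrangements. The alternatives were DESeq2 1.42.0 as test or size factors, upper-quartile factors, limma-voom, other filters, the replicate number as a block, correction for gene length (lowess, span 0.3) and each liver left out. Leaving out LΔRbfox2 livers 3 and 4 together was chosen after seeing the data. The genotype fits (edgeR, limma-voom and DESeq2) and the fits on *Slc1a2* without a block (edgeR and limma-voom) were tested on simulated data. The other alternatives were not. Between libraries of a genotype chi-square was at least 106 per degree of freedom, so none was a copy.

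The 10 genes and all lists were chosen with earlier results of these data known. Besides the 10 genes, *Rbfox2*, the 3 genes of smallest edgeR p in each of 8 lists and the 5 genes most like *Slc1a2* by either correlation are named. The single result of 1 gene of these lists is not reported here. Motifs were searched in RefSeq promoter windows (GRCm38.p6) and GENCODE transcripts. Permutations and figures were made in Python 3.11.15 (scipy 1.17.1, numpy 2.4.6, matplotlib 3.10.9).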

Additional observations from a re-analysis of the deposited data

Results flagged for a closer look

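Among 90 groups of 4 livers (each genotype for every gene named by rule), 2 held a liver set apart from the other 3 by Dixon's ratio, where about 1 in 20 groups, or 4.5 of 90, is set apart by chance. Both were LΔRbfox2 liver 2, which was also the highest of its genotype for *Slc1a2*, *Glul*, *Axin2*, *Tbx3* and *Rnf43*. *Bcl9*, which encodes a coactivator of β-catenin, was at 3.68 CPM in that liver and at 1.01 to 1.37 CPM in the other LΔRbfox2 livers. *Bcl9l*, its relative, was at 34.0 CPM in that liver and at 9.02 to 12.8 CPM in the others. No liver was set apart in this way for any of the 10 genes.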

How the results depend on the processing

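Every LΔRbfox2 liver was below every LWT liver for *Slc1a2*, so leaving out a liver could hardly change its direction. The log2 fold change of *Slc1a2* kept its direction under every alternative run: −1.17 with DESeq2, −1.19 with upper-quartile factors or without a filter, −0.93 after correction for gene length, and −1.27 to −1.04 with each liver left out. With the replicate block it was −1.15; same-numbered livers had correlations of 0.127, −0.613, 0.123 and −0.514, so the numbers were not taken to pair the livers. Among the 10 genes, 4 of 90 values under other settings and 5 of 80 with 1 liver left out changed sign, from *Tbx3*, *Rnf43*, *Lect2*, *Oat* and *Lgr5*. The number of genes past an adjusted p of 0.05 between genotypes was 0 under all alternatives except DESeq2, with 9, and 0 to 0 with each liver left out. The number following *Slc1a2* within genotypes was 0, and 0 to 1 with each liver left out, but 2674 under the replicate block, where *Rnf43* and *Lect2* also passed; the cause was not tested. Slopes on *Slc1a2* ran from −0.43 to 1.76 for *Lgr5*, from −0.28 to 1.32 for *Znrf3*, from −0.51 to 0.070 for *Rhbg* and from −0.23 to 1.54 for *Tbx3* with each liver left out. At an unadjusted p under 0.05, 81.3% of genes were higher in LΔRbfox2 livers, against 71.0% with upper-quartile factors, 67.2% without a filter, 68.4% under the block (229 higher, 106 lower), 66.6% after correction for gene length (801 higher, 402 lower) and 48.0% without LΔRbfox2 livers 3 and 4 (82 higher, 89 lower). The number of lower genes was 439 with DESeq2 and 604 without a filter, and with each liver left out it ran from 122 (without LΔRbfox2 liver 4) to 1131 (without LΔRbfox2 liver 2), and that of higher genes from 282 to 2344 (without the same livers). Counts of *Rhbg* (26 to 51) limit its precision.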
